A study of Mus musculus with 5 samples.

Results

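The genes described here are 9 markers of classical monocytes, the Ly6C-high monocytes of the mouse: Vcan, F13a1, Fn1, Mgst1, Hp, Plac8, Cd14, Ly86 and Lyz2. They were taken by exact symbol from the 55291 gene rows that each library's file holds, and all 9 were found and passed the filter on low counts. The RNA came from mouse bone marrow cells labelled as monocytes. There were 3 wild-type libraries, replicates 1, 2 and 3, and 2 Tet2-mutant libraries, replicates 2 and 3. Tet2, which oxidises methylated cytosines, is a frequent target of mutation in blood disease. Strain, age, the Tet2 allele, any treatment and the way the cells were isolated are unstated in the sources used here. Whether each library is a separate animal is unstated too, so p-values rest on the spread of these samples alone, and that spread may be technical.

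Classical monocytes leave the bone marrow through the chemokine receptor Ccr2, enter inflamed tissue, and there can turn into macrophages or dendritic cells. In blood they also give rise to non-classical, patrolling monocytes, which carry little Ly6C. The marker genes have different roles. Cd14 and Ly86 belong to the sensing of bacterial lipopolysaccharide, Vcan, Fn1 and F13a1 to extracellular matrix and its crosslinking, Lyz2 and Hp to secreted defence proteins, Mgst1 to detoxification, and Plac8 is a small cysteine-rich protein of myeloid and lymphoid cells. Several are not confined to monocytes: granulocytes also make Lyz2, Hp and Mgst1, platelets carry F13a1, B cells and dendritic cells express Ly86, and fibroblasts express Fn1 and Vcan.

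Ly86 and Plac8 rose in the Tet2-mutant libraries, and the other 7 of the 9 genes did not pass the main test. Ly86 rose by 3.48 ± 0.27 (SE) on the log2 scale and Plac8 by 2.01 ± 0.26 (adjusted p = 0.000929 and 0.00581; edgeR's quasi-likelihood F-test with scaling by trimmed mean of M-values, TMM, and Benjamini-Hochberg adjustment over all 17062 tested genes, n = 3 and 2). These 2 of 9 stand beside 10.6% of all tested genes called higher. None of the 9 was called lower by that test, beside 4.43% of all genes. At an unadjusted p under 0.05, 4 were higher (Ly86, Plac8, Cd14 and Lyz2) and 1, F13a1, was lower, beside 20.5% and 18.6% of all genes. DESeq2 called 3 higher, with Lyz2 added, and 0 lower, beside 17.4% and 12.5% of all genes. limma-voom called the same 3 higher and F13a1 lower, beside 10.8% and 8%. The median log2 fold change was 0.46 over the 9 genes and -0.07 over all tested genes.

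The promoters of Ly86, Plac8 and F13a1 are shown because Ly86 and Plac8 rose and F13a1, a neighbour of Ly86, stood lower in both mutant libraries. They come from RefSeq (GRCm38.p6), and only bases upstream of the gene's start in both RefSeq and GENCODE M21 are printed, 5′ to 3′ on the gene's strand. Capitals mark GAGGAA, a core bound by PU.1 and related ETS factors.
Ly86, chr13:37345095-37345207, plus strand: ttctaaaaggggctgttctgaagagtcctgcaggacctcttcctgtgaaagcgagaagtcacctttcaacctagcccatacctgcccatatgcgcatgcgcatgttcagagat
Plac8, chr5:100572246-100572455, minus strand: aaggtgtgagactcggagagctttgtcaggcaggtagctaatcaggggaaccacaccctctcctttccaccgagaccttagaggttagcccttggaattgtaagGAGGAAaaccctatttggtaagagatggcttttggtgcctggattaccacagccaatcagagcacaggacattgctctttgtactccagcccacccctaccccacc
F13a1, chr13:37050245-37050494, minus strand: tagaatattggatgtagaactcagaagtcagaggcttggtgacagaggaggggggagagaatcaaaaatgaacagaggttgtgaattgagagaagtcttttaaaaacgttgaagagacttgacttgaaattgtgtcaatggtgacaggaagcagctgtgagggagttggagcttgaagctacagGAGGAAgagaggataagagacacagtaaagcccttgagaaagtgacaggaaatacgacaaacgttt

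Promoter entries were matched for 6 of the 9 genes, with 9 start sites in all, and 4 motifs were searched on both strands in the 250 bases before each start. GAGGAA was present before a start of Plac8, Mgst1 and F13a1 and in 23.3% of 32851 promoters of that length. The C/EBP motif TTNNGCAA was present before a start of Plac8 and Mgst1 and in 9.56% of all promoters. The core of the interferon-stimulated response element and an ETS-IRF composite element, each with 2 free bases and held by 2.98% and 2.30% of all promoters, were in none of the 9 windows. No match overlapped another in the members' windows, and a second GAGGAA of Plac8, on the other strand 15 bases before its start, lies outside the printed stretch. For Ly86, Lyz2 and Vcan none of these letters was found in the windows searched.

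Library size and composition differed between the genotypes, which bears on each level below. The gene counts summed to 53789308 to 72414875 for the wild type, and to 17459808 and 60508381 for mutant replicates 2 and 3. Genes with any count numbered 24532, 25612 and 26207 in wild-type replicates 1, 2 and 3, against 18047 and 17944 in mutant replicates 2 and 3. Mutant replicate 3 had fewer such genes than wild-type replicate 3 although its total count was higher. This difference goes with genotype in these libraries, and its cause was not tested. Tet2 itself was at 11.3 to 13.9 CPM in the wild type, against 3.84 and 13.9 CPM in mutant replicates 2 and 3, a level that does not check the genotype labels because a mutated gene may still be transcribed. Cel, a digestive enzyme gene of the pancreas, was at 0.297 to 0.409 CPM in the wild type, against 67.4 and 181 CPM in the mutant, and the part of such RNA in the results was not tested. TMM factors were 1.14 to 1.17 in the wild type and 0.724 and 0.896 in mutant replicates 2 and 3. Levels are given as CPM, the counts per 1000000 of the library's total gene count, while fold changes from the test carry the TMM factors and are therefore higher than the CPM values alone would give. With total counts as the only scale the all-gene median of the log2 fold change moved from -0.07 to -0.58, and genes called higher went from 70.5% of calls to 29.1%. With upper-quartile scaling the median was -0.35. Directions of small size are thus relative to the scaling.

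**Figure D1:**
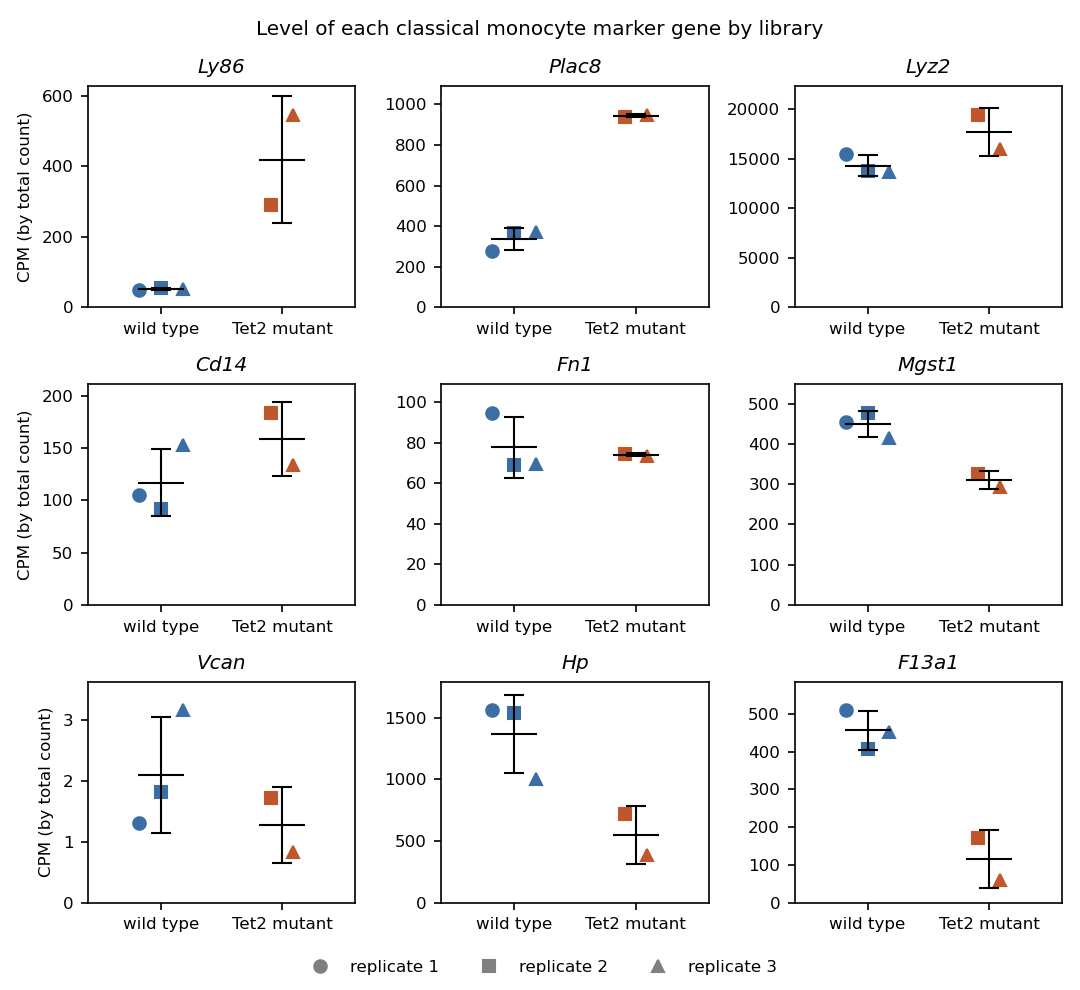
Level of each of the 9 genes in CPM by total count on axes that start at 0, with a point for each library (3 wild type, 2 Tet2 mutant), the mean as a long bar and the SD as an error bar. Ly86 and Plac8 in both mutant libraries lie above all wild-type libraries, and F13a1, Hp and Mgst1 lie below them on this scale.

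Ly86 (chromosome 13, 37345208 to 37419036 in GRCm38) encodes MD-1, a secreted partner of the receptor Cd180 that tunes responses to lipopolysaccharide. It stood at 49.5, 55.2 and 52.4 CPM in replicates 1, 2 and 3 of the wild type, against 291 and 546 CPM in mutant replicates 2 and 3. The wild-type libraries lay close together, at 52.4 ± 2.84 CPM (SD, n = 3), and both mutant libraries were far above them, at 5.56 and 10.4 times the wild-type mean. Ly86 kept its call in all 13 alternative fits, with log2 fold changes of 3.0 to 3.75 and adjusted p of 1.38e-19 to 0.0173. Among these, a fit without mutant replicate 2 or 3 leaves 1 mutant library, which was taken to have the spread of the wild-type libraries.

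Cd180, the receptor that Ly86 binds, rose together with it. It measured 5.84, 4.02 and 4.05 CPM in the wild type, against 20.3 and 51.7 CPM in the mutant (log2 fold change 3.42 ± 0.46, edgeR adjusted p = 0.00656), and was called in all 13 alternatives. For both genes replicate 3 was the higher mutant library. B cells carry both, and the summed level of 12 B cell genes was 174 to 869 CPM in the wild type, 695 CPM in mutant replicate 2 and 6737 CPM in mutant replicate 3. The 17 macrophage genes summed to 1180 to 1493 CPM in the wild type and to 6792 and 7458 CPM in the mutant libraries, and the 11 dendritic cell genes to 193 to 247 and to 580 and 946 CPM. The part of these cells in the Ly86 level was not tested. In such bulk samples, more cells of a type and more RNA per cell cannot be told apart.

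Plac8 (chromosome 5, 100553725 to 100572245) was even between the mutant libraries in CPM by total count. Its levels were 276, 367 and 371 CPM in replicates 1, 2 and 3 of the wild type and 940 and 948 CPM in mutant replicates 2 and 3. On this scale the 2 mutant libraries differed by less than the wild-type libraries did, and each was about 2.8 times the wild-type mean (2.78 and 2.81). With TMM sizes the mutant levels were 1300 and 1059, at 4.44 and 3.62 times the wild-type mean. There the SD was 170 in the mutant and 49.3 in the wild type. The call held in all 13 alternatives, with log2 fold changes of 1.48 to 2.23 and adjusted p of 5.03e-08 to 0.0182. Plac8 is also expressed in lymphocytes and plasmacytoid dendritic cells, whose part in its level was not tested.

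Cd14 (on chromosome 18) encodes the co-receptor that hands lipopolysaccharide to Tlr4 and its partner Ly96. It measured 105, 91.7 and 153 CPM in the wild type, against 184 and 134 CPM in mutant replicates 2 and 3, so mutant replicate 3 lay inside the wild-type range. The log2 fold change was 1.0 ± 0.34 (edgeR adjusted p = 0.0805), and 0.44 with total counts as the scale (adjusted p = 0.264). It passed as higher with no filter on low counts (edgeR adjusted p = 0.0287). The log2 fold change of Cd14 was 1.32 without mutant replicate 3 and 0.56 without mutant replicate 2. Tlr4, the signalling receptor, was at 24.2 to 34.4 CPM in the wild type, against 35.4 and 11.7 CPM in mutant replicates 2 and 3. Ly96 was at 3.83 to 4.88 CPM against 2.23 and 28.0 CPM, and Tlr2, which also uses Cd14, at 58.3 to 81.6 against 76.6 and 38.2 CPM. Neither Tlr4, Ly96 nor Tlr2 passed the main test (edgeR adjusted p = 0.734, 0.108 and 0.617), and the mutant libraries lay on opposite sides of the wild type for Tlr4 and Ly96. Left with 1 mutant library at a time, the log2 fold change of Tlr4 was positive with mutant replicate 2 and negative with mutant replicate 3. Ly96 passed as higher by DESeq2 (adjusted p = 0.0339) and by edgeR with no filter (adjusted p = 0.023). Its log2 fold change was 3.06 without mutant replicate 2 and -0.28 without mutant replicate 3. The log2 fold change of Tlr2 was positive with mutant replicate 2 alone and negative with mutant replicate 3 alone.

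Lyz2 (chromosome 10, 117277331 to 117282321), which encodes the lysozyme of myeloid cells, was the most abundant of the 9. It stood at 15519, 13749 and 13641 CPM in the wild type, against 19449 and 15997 CPM in mutant replicates 2 and 3, with both mutant libraries above the wild type. The log2 fold change was 0.85 ± 0.31 (edgeR adjusted p = 0.0928). It passed as higher by DESeq2 (adjusted p = 0.0474), by limma-voom (adjusted p = 0.0323) and by edgeR with no filter (adjusted p = 0.00418). It did not pass with total counts as the scale (log2 fold change 0.31, edgeR adjusted p = 0.366). The log2 fold change of Lyz2 was 1.11 without mutant replicate 3 and 0.53 without mutant replicate 2. Lyz1, the lysozyme paralog best known from Paneth cells of the gut, lies 5475 bases from Lyz2. Lyz1 rose from 8.76, 18.2 and 4.87 CPM to 42.4 and 34.6 CPM (log2 fold change 2.41 ± 0.57, edgeR adjusted p = 0.037), a call lost without wild-type replicate 1 (adjusted p = 0.117) or 3 (adjusted p = 0.0674). Of the 50-base windows in Lyz2 transcripts 15.4% also occur in Lyz1, so reads may be shared, and the far lower Lyz1 level is uncertain. Per 1000 Lyz2 counts there were 0.565, 1.32 and 0.357 Lyz1 counts in the wild type and 2.18 and 2.16 in the mutant libraries.

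Hp (chromosome 8, 109575128 to 109579172) encodes haptoglobin, which binds free haemoglobin. It was at 1560, 1541 and 1003 CPM in replicates 1, 2 and 3 of the wild type, against 718 and 387 CPM in mutant replicates 2 and 3. Both mutant libraries were below the wild type on this scale, at 0.525 and 0.283 times its mean, while with TMM sizes the groups overlapped. The log2 fold change was -0.73 ± 0.41 (edgeR adjusted p = 0.213). Hp passed as lower with total counts as the scale (-1.31, edgeR adjusted p = 0.0394). Its log2 fold change was -1.45 without mutant replicate 2 and -0.26 without mutant replicate 3. The 6 liver cell genes, from the tissue that makes most haptoglobin, summed to at most 0.0558 CPM in any library. Cd163, the macrophage receptor for haptoglobin bound to haemoglobin, measured 19.9, 7.07 and 4.65 CPM in the wild type, against 2.58 and 5.93 CPM in the mutant (edgeR adjusted p = 0.443). Hmox1, the enzyme that breaks down the haem so taken up, rose from 92.0 ± 7.84 CPM (SD, n = 3) to 173 and 248 CPM (log2 fold change 1.70 ± 0.23, edgeR adjusted p = 0.00641).

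Mgst1 (chromosome 6, 138140316 to 138156755) encodes a membrane-bound glutathione transferase. Its levels were 454, 478 and 415 CPM in the wild type and 325 and 294 CPM in the mutant libraries, which were lower on this scale. With TMM scaling the log2 fold change was 0.00 ± 0.25 (edgeR adjusted p = 0.996) and the groups overlapped, whereas with total counts as the scale it was -0.54 (adjusted p = 0.0934), beside a median of -0.58 over all genes on that scale. Its relatives Mgst2 and Mgst3 did not pass either (edgeR adjusted p = 0.152 and 0.181). Mgst3 was at 109 to 188 CPM in the wild type, against 71.3 and 25.7 CPM in the mutant. It passed as lower with total counts as the scale and with no filter (edgeR adjusted p = 0.0442 and 0.04). The log2 fold change of Mgst3 was -2.175 without mutant replicate 2 and -0.40 without mutant replicate 3. Mgst2 passed as lower with no filter (adjusted p = 0.0235).

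F13a1 (chromosome 13, 36867178 to 37050244) encodes the A subunit of coagulation factor XIII, which crosslinks fibrin and fibronectin. It stood at 509, 406 and 453 CPM in replicates 1, 2 and 3 of the wild type, against 170 and 61.3 CPM in mutant replicates 2 and 3. Both mutant libraries were below every wild-type library with either scaling. They stood at 0.374 and 0.134 times the wild-type mean in CPM by total count, and at 0.597 and 0.173 times with TMM sizes. The log2 fold change was -1.38 ± 0.50 and did not pass (edgeR adjusted p = 0.0905). It passed in 7 of 13 alternatives, among them edgeR with total counts as the scale (-1.98, adjusted p = 0.0273) and limma-voom (-1.88, adjusted p = 0.0281). Those 7 include the fits with a lone mutant library. There the log2 fold change was -2.53 without mutant replicate 2 and -0.75 without mutant replicate 3. Platelets also carry F13a1, and 9 megakaryocyte and platelet genes summed to 159 to 194 CPM in the wild type and to 129 and 131 CPM in the mutant. Of these genes Gp9 fell and Ppbp rose (log2 fold changes -2.26 and 1.91, edgeR adjusted p = 0.0302 and 0.0133). Gp9 lost its call in each fit without 1 wild-type library (adjusted p = 0.122, 0.138 and 0.158) and Ppbp without wild-type replicate 1 (adjusted p = 0.0562). The related crosslinking enzyme Tgm2 rose from 27.4 ± 8.92 CPM (SD, n = 3) to 122 and 71.4 CPM (log2 fold change 2.39 ± 0.42, edgeR adjusted p = 0.0161), a call lost without wild-type replicate 1 (adjusted p = 0.0577).

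F13a1 and Ly86 are neighbours. They lie 294963 bases apart on chromosome 13, and of the 5 annotated genes between them none codes for protein or passed the filter, with at most 13 counts in any library. Per 1000 F13a1 counts there were 97.3, 136 and 116 Ly86 counts in wild-type replicates 1, 2 and 3 and 1708 and 8903 in mutant replicates 2 and 3. This ratio within a library does not depend on the scaling, and it was 14.7 and 76.6 times the wild-type mean. It shows unequal change of the 2 genes and not which of them moved.

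Fn1 and Vcan, the matrix genes, did not pass in any of the 14 fits. Fn1 (fibronectin, chromosome 1, 71585520 to 71653200) stood at 94.9, 69.0 and 69.3 CPM in the wild type, against 74.6 and 73.6 CPM in the mutant libraries, inside the wild-type range. Its log2 fold change was 0.46 ± 0.27 with TMM scaling (edgeR adjusted p = 0.235) and -0.07 with total counts as the scale. Vcan (versican, chromosome 13, 89655312 to 89742509) was low in every library, with 84, 132 and 170 counts in wild-type replicates 1, 2 and 3 and 30 and 51 counts in mutant replicates 2 and 3. These counts were 1.31, 1.82 and 3.16 CPM against 1.72 CPM (exact 95% Poisson interval 1.16 to 2.45, for counting error only) and 0.843 CPM (0.628 to 1.11). Its log2 fold change was -0.16 ± 0.83 (edgeR adjusted p = 0.9), and it turned positive without mutant replicate 3 or wild-type replicate 3.

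Of the named receptors of the matrix proteins, Itgb1 alone passed the main test. Itgb1, the beta chain of fibronectin receptors, rose from 242 ± 17.3 CPM (SD, n = 3) to 254 and 641 CPM (log2 fold change 1.35 ± 0.33, edgeR adjusted p = 0.0397). Mutant replicate 2 was barely above the highest wild-type library at 252 CPM. The Itgb1 call was lost with total counts as the scale (edgeR adjusted p = 0.102), with upper-quartile scaling (adjusted p = 0.0702) and with the replicate block (adjusted p = 0.059). It was also lost without any 1 wild-type library (adjusted p = 0.114, 0.082 and 0.0748). The alpha chains Itga5 and Itga4 did not pass (edgeR adjusted p = 0.509 and 0.135). The log2 fold change of Itga4 was 0.92 without mutant replicate 3 and 0.38 without mutant replicate 2. Cd44, a receptor for hyaluronan, to which versican binds, was at 224 to 298 CPM in the wild type, against 79.3 and 142 CPM in the mutant (log2 fold change -0.74 ± 0.28, edgeR adjusted p = 0.0978). It passed as lower with total counts as the scale (edgeR adjusted p = 0.0347). The log2 fold change of Cd44 was -1.04 without mutant replicate 3 and -0.50 without mutant replicate 2. Among all 28 tested partner and receptor genes 6 rose and 1 fell, Adamts1, a protease that cuts versican (chosen after its value was seen), beside 10.6% and 4.43% of all genes. The median was 0.39. With total counts as the scale 4 were higher and 6 lower, beside 6.92% and 16.9% of all genes, with a median of -0.13. Upper-quartile scaling gave 5 and 4, beside 8.32% and 10.8%. With wild-type replicates 1, 2 and 3 left out in turn, rises numbered 2, 4 and 3, beside 3.81%, 5.41% and 5.09% of all genes. No partner gene fell in these fits, beside 0.0371%, 0.112% and 0.0846%, so that Adamts1 lost its call (edgeR adjusted p = 0.113, 0.0985 and 0.102). Adamts1 lost it with the replicate block too (edgeR adjusted p = 0.48). The median of the tested partner and receptor genes was 0.31 without mutant replicate 2 and 0.60 without mutant replicate 3.

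**Figure D2:**
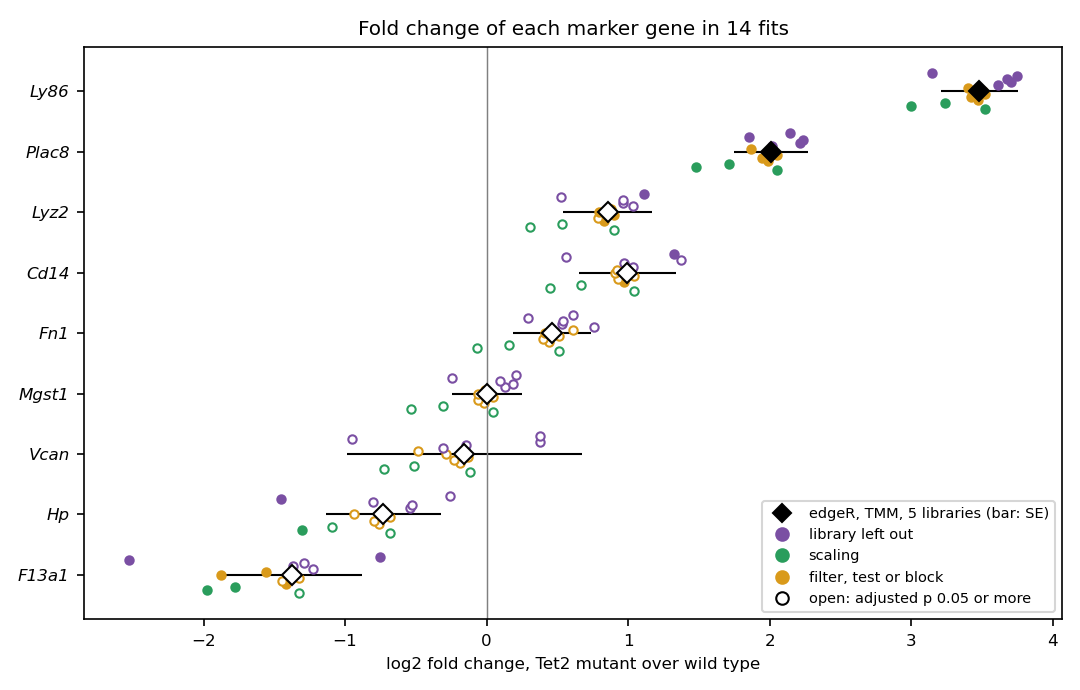
Log2 fold change of Tet2 mutant over wild type for each gene in 14 fits, with edgeR and TMM on all 5 libraries as a diamond (bar, SE) and 13 alternatives as circles. Filled symbols passed at an adjusted p under 0.05. Ly86 and Plac8 are filled in every fit, F13a1 in 7 of the 13 alternatives, and Fn1, Mgst1 and Vcan in none and with values on both sides of 0.

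Counts of called members moved with the settings, as did calls over all genes. With total counts as the scale 2 members were higher (6.92% of all genes) and 2 lower (16.9%), and with upper-quartile scaling 2 (8.32%) and 1 (10.8%). With relative log expression factors it was 2 (11.1%) and 0 (4.08%), and with a minimum of 1 CPM in at least 3 libraries 2 (11.3%) and 0 (3.83%). With no filter it was 4 (9.98%) and 1 (4.89%). DESeq2 called 3 higher (17.4%) and 0 lower (12.5%), and limma-voom 3 (10.8%) and 1 (8%). With the replicate number as a block 2 were higher (4.41%) and 1 lower (1.36%). Replicate 1 exists only in the wild type, so the fold changes of that fit rest on replicates 2 and 3 alone. Each fit that left out 1 wild-type library called 2 higher and 0 lower, beside 3.81% and 0.0371% of genes without replicate 1, 5.41% and 0.112% without replicate 2, and 5.09% and 0.0846% without replicate 3. Leaving out mutant replicate 2 gave 2 higher (26.5%) and 2 lower (32.2%), and leaving out mutant replicate 3 gave 4 (21%) and 1 (18.4%).

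Within each library, counts relative to Lyz2 gave an order of the markers that does not depend on the scaling. Lyz2 itself stood at 1.36 and 1.12 times its wild-type mean CPM in mutant replicates 2 and 3, so each ratio carries that change. Per 1000 Lyz2 counts, Ly86 went from 3.19 to 4.01 in the wild type to 14.97 and 34.1 in mutant replicates 2 and 3, and Plac8 from 17.8 to 27.2 to 48.3 and 59.3. F13a1 went from 29.5 to 33.2 in the wild type to 8.76 and 3.83, Hp from 73.6 to 112 to 36.9 and 24.2, and Mgst1 from 29.3 to 34.7 to 16.7 and 18.4. Cd14 stayed inside the wild-type range of 6.67 to 11.2, at 9.44 and 8.37. With 3 against 2 libraries an exact two-sided rank test of such a ratio cannot give a p below 0.2, so none is given.

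**Figure D3:**
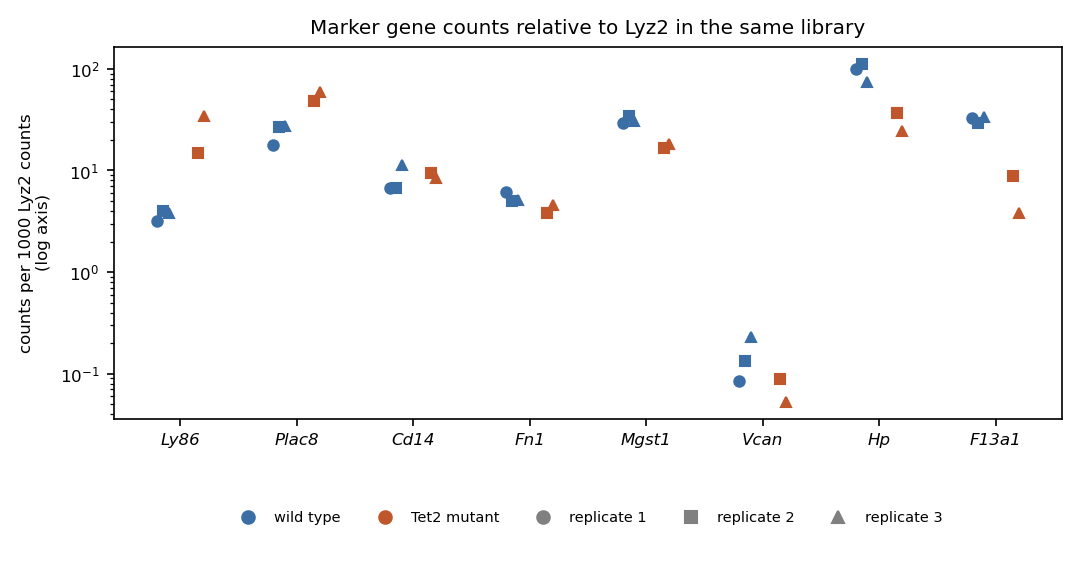
Counts of the other 8 genes per 1000 Lyz2 counts in the same library, on a log axis, with a point for each library. Ly86 and Plac8 are above the wild type in both mutant libraries, Hp, Mgst1, F13a1 and Fn1 below it, and Cd14 and Vcan overlap. Lyz2 itself is higher in both mutant libraries, which lowers each ratio. Fn1 lay inside the wild-type range in CPM by total count and above it with TMM sizes. The share of all genes that do not overlap by this ratio was not determined.

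Across the 9 genes, the groups did not overlap for 3 genes above and 3 below the wild type in CPM by total count, beside 14.1% and 46.8% of all tested genes. With TMM sizes it was 5 above and 1 below, beside 22.9% and 33.3%. Ly86, Plac8 and Lyz2 were above and F13a1 below with both scalings, Hp and Mgst1 below only by total count, and Cd14 and Fn1 above only with TMM sizes. Per kilobase of annotated exon, the wild-type order of mean CPM was Lyz2 (10868), Hp (852), Mgst1 (223), Plac8 (212), F13a1 (67.7), Cd14 (67.3), Ly86 (14.4), Fn1 (6.65) and Vcan (0.145). The neighbours Mgst1 and Plac8, and F13a1 and Cd14, overlapped between libraries. In the mutant libraries the order was Lyz2 (13467), Plac8 (593), Hp (344), Mgst1 (154), Ly86 (115), Cd14 (91.7), F13a1 (17.2), Fn1 (6.34) and Vcan (0.0885). Here Ly86, at 80.2 and 150 CPM per kilobase, overlapped with both Mgst1 and Cd14. Annotated antisense genes lie over exons of F13a1 and Fn1, but held at most 20 counts in any library.

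Of 25 other genes listed for classical monocytes, 10 rose and 1 fell, beside 10.6% and 4.43% of all genes. The part of other cell types in these changes was not tested. The fall was Itgam (log2 fold change -1.38 ± 0.34, edgeR adjusted p = 0.0408), which encodes the integrin chain CD11b and was chosen after its value was seen. Their median was 1.02, and 0.41 with total counts as the scale. On that scale 10 were higher and 5 lower, beside 6.92% and 16.9% of all genes. With wild-type replicates 1, 2 and 3 left out in turn, rises numbered 9, 10 and 10, beside 3.81%, 5.41% and 5.09% of all genes. Itgam lost its call in these fits (edgeR adjusted p = 0.12, 0.0972 and 0.0702), as it did with the replicate block (adjusted p = 0.251). The median of the 25 genes was 0.38 without mutant replicate 2 and 1.35 without mutant replicate 3. The lectin receptor gene Clec4a3 rose from 41.0 ± 5.78 CPM (SD, n = 3) to 477 and 556 CPM in mutant replicates 2 and 3 (log2 fold change 4.17 ± 0.26, edgeR adjusted p = 0.000757). The membrane genes Ms4a6b, Ms4a4c and Ms4a6c rose by 3.22, 3.78 and 2.49 on the log2 scale (edgeR adjusted p = 0.00336, 0.00408 and 0.0057), and these 4 genes were called in all 13 alternatives. Ly6c2, which encodes the Ly6C antigen that names the subset, measured 410, 580 and 466 CPM in the wild type, against 277 and 147 CPM in the mutant. It did not pass the main test (edgeR adjusted p = 0.263) or with upper-quartile scaling (adjusted p = 0.0615). It passed as lower with total counts as the scale (edgeR adjusted p = 0.0411). The log2 fold change of Ly6c2 was -1.35 without mutant replicate 2 and -0.14 without mutant replicate 3. Ccr2 was at 181, 181 and 301 CPM against 416 and 224 CPM and did not pass (edgeR adjusted p = 0.0975). It passed as higher with no filter (edgeR adjusted p = 0.0108). The log2 fold change of Ccr2 was 1.575 without mutant replicate 3 and 0.38 without mutant replicate 2.

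Non-classical monocyte genes rose in 10 of 15 tested cases and none fell, with a median of 2.64, beside 10.6% of all genes called higher. Gngt2, a G protein subunit gene, rose from 15.6 ± 2.15 CPM (SD, n = 3) to 191 and 252 CPM (log2 fold change 4.34 ± 0.26, edgeR adjusted p = 0.000728), and Fcgr4, an Fc receptor gene, from 33.0 ± 2.36 to 307 and 271 CPM (3.67 ± 0.26, adjusted p = 0.000848). Both were called in all 13 alternatives. With wild-type replicates 1, 2 and 3 left out in turn, rises numbered 7, 9 and 8 (3.81%, 5.41% and 5.09% of all genes). With mutant replicates 2 and 3 left out in turn, the median log2 fold change was 3.06 and 1.98. Of 14 monocyte fate factors 2 rose and none fell, beside 10.6% and 4.43% of all genes. With total counts as the scale 1 was higher and 1 lower, beside 6.92% and 16.9%. Nr4a1, which non-classical monocytes need, went from 76.0, 33.9 and 44.7 CPM to 87.7 and 103 CPM (edgeR adjusted p = 0.0449), and Maf, a macrophage factor, from 6.01 ± 0.875 CPM to 58.8 and 12.4 CPM (adjusted p = 0.0302). Both calls were lost in 5 of the 13 alternatives, among them the fits without wild-type replicate 2 (adjusted p = 0.0795 and 0.053) or 3 (adjusted p = 0.0827 and 0.0583), and for Maf also the fit without replicate 1 (adjusted p = 0.103).

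Genes listed for neutrophils and granulocyte precursors had a large summed level in the libraries, and granulocytes share Lyz2, Hp and Mgst1 with monocytes. Sums of lists that differ in size and gene abundance do not measure the share of a cell type. The 18 neutrophil and granulocyte precursor genes summed to 61075 to 78967 CPM in the wild type and to 41602 and 22160 CPM in mutant replicates 2 and 3, against 8357 to 9356 and 12143 and 7691 CPM for the 25 other classical monocyte genes. Of the 18 genes 1, Padi4, fell in the main test, beside 4.43% of all genes, a call lost without wild-type replicate 1 (adjusted p = 0.0957). The count of falls was 11 with total counts as the scale, beside 16.9% of all genes. It was 7 with upper-quartile scaling (10.8%), 12 with no filter (4.89%) and 9 by limma-voom (8%). The replicate block gave 9 (1.36%) and DESeq2 gave 5 (12.5%). The median log2 fold change of the 18 genes was -1.23 in the main test. It was -2.635 without mutant replicate 2 and -0.61 without mutant replicate 3. The 8 erythroid genes listed, 7 of them in the files, summed to 6661 to 17093 CPM and to 9300 and 1729 CPM. The 10 stromal, endothelial and fat cell genes, whose cells make Fn1 and Vcan, summed to 83.0 to 153 CPM and to 46.4 and 49.2 CPM, with Col3a1 at 0 in both mutant libraries. The 11 T and NK cell genes summed to 306 to 383 and to 912 and 962 CPM, and the 7 basophil and mast cell genes to 1192 to 1635 and to 842 and 514 CPM. The part of these cells in the levels of the 9 genes was not tested.

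**Figure D4:**
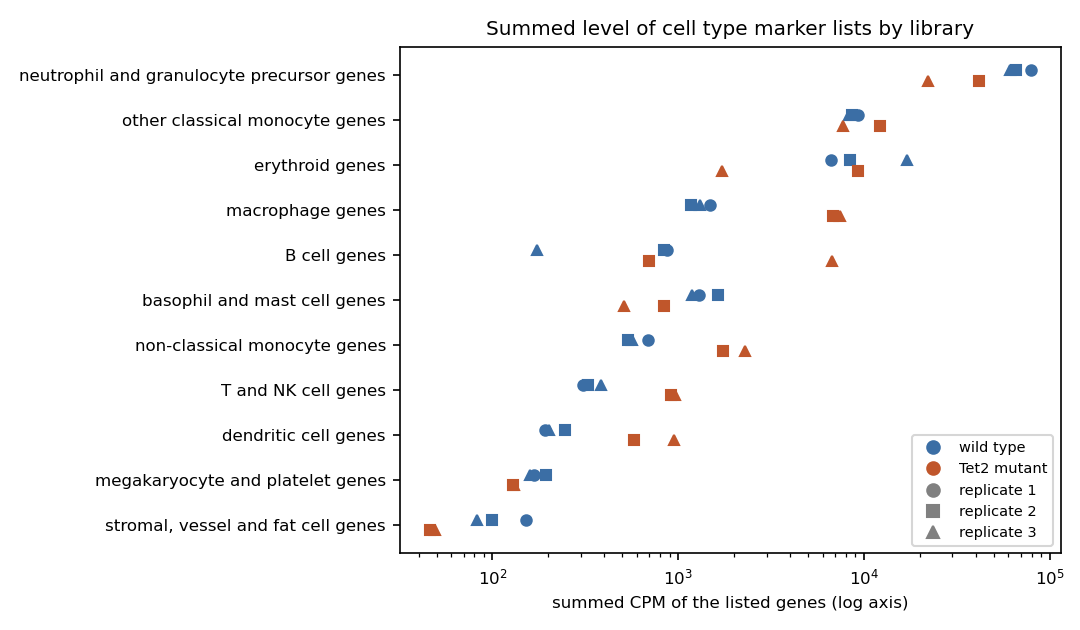
Summed CPM of 11 marker lists in each library, on a log axis. Neutrophil genes have the largest sum in every library and are lower in both mutant libraries, while macrophage, non-classical monocyte, dendritic and T cell sums are higher in both and the B cell sum only in mutant replicate 3.

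For each of the 9 genes the gene of nearest pattern was sought among 8843 tested genes with a mean of 10 CPM or more, by the root mean square distance of centred log2 CPM over the 5 libraries. It was Crip1 for Ly86 (distance 0.0957), Psmb9 for Plac8 (0.0359), Vmp1 for Cd14 (0.127), Scamp2 for Lyz2 (0.0362) and Gpr160 for Hp (0.0866). It was Clk4 for Mgst1 (0.0298), Lbr for F13a1 (0.0522), Usp9x for Fn1 (0.012) and Dnajb2 for Vcan (0.0908). With 5 libraries and 8843 candidates a near match says little by itself, and how many other genes lie nearly as close was not counted. Among the 9 themselves Fn1 and Lyz2 were the closest pair (0.219) and F13a1 and Ly86 the most distant (2.60).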

How the data were processed

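The deposited files hold raw counts per gene symbol made by the authors, 1 file per library. Per the labels' protocols, each library was made with the SMARTer mRNA-Seq kit from 1.3 ug of RNA. Per the submitters' processing notes, Trimmomatic and STAR were used with the mm10 build. Versions, the read counter, the annotation and the strand setting stay unnamed (not given in the sources used here). No molecular identifiers are named, so intervals cover counting error only.

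Counts were tested with R 4.3.3 and edgeR 4.0.16 (filterByExpr, TMM, quasi-likelihood F-test, Benjamini-Hochberg adjustment over 17062 genes, with calls below an adjusted p of 0.05). SEs were derived from F as the absolute log2 fold change over its square root. limma 3.58.1 and DESeq2 1.42.0 served as alternatives, beside other scalings and filters, the replicate block and each library left out. The test was checked on simulated data. Positions and exon lengths are from GENCODE M21 (GRCm38), and promoters from RefSeq (GRCm38.p6).

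The 9 genes and 14 further lists were chosen with earlier results of these data known. Apart from the 9, named genes were the called genes of lowest p in a list, at most 4, or the 2 of lowest unadjusted p if a list had no call, then direct receptors and paralogs of the 9, Ly6c2 and Ccr2. Not every such gene is given with values. Itgam and Adamts1 were chosen after their values were seen. No set test was run.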

Additional observations from a re-analysis of the deposited data

How the results depend on the processing

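Ly86 and Plac8 were called higher in all 13 alternatives. The count of members called higher was 2 and became 4 with no filter on low counts, where Cd14 and Lyz2 were added (9.98% of all genes), and 3 by DESeq2 (17.4%) and limma-voom (10.8%), where Lyz2 was added. The count called lower was 0 and became 2 with library size alone as the scale (F13a1 and Hp, beside 16.9% of all genes), and 1 (F13a1) with upper-quartile scaling, with no filter, by limma-voom and with the replicate block (10.8%, 4.89%, 8% and 1.36%). With each library left out in turn, 2 to 4 members were called higher and 0 to 2 lower. A lone mutant library was taken to have the spread of the wild-type libraries. Log2 fold changes of Fn1, Mgst1 and Vcan changed sign. Fn1 was at -0.0691 with library size alone. Mgst1 was at -0.54 with library size alone, -0.31 with upper-quartile scaling, -0.0219 with no filter, -0.0622 with a minimum of 1 CPM in at least 3 libraries, -0.0615 by limma-voom and -0.0123 with the replicate block. Over the fits with 1 library left out, Mgst1 ran from -0.24 to 0.21 (negative without mutant replicate 2) and Vcan from -0.95 to 0.38 (positive without wild-type replicate 3 or mutant replicate 3). None of these passed. The cause was not tested. Replicate numbers 2 and 3 occur in both genotypes. Deviations of same-numbered libraries from their group means had correlations of -0.03 and -0.02. With 2 mutant libraries the deviations of one mirror those of the other, so these values cannot tell whether the numbers are pairs. The main test did not take them as pairs. With the replicate block, calls over all genes went from 2556 to 984. They were 4058 with library size alone, 4557 with no filter and 5109 by DESeq2, and 622 to 10862 with 1 library left out.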
